A study of Mus musculus with 10 samples.

Results

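The dual-specificity phosphatases (DUSPs) remove phosphate from both the threonine and the tyrosine of their substrates, and the MAP kinases ERK, JNK and p38 are the best known of these. Their transcripts were followed on arrays of splenic CD4+ T cells of the inbred mouse strain DBA/1. The 10 genes were taken by symbol (Dusp1, Dusp2, Dusp4, Dusp5, Dusp6, Dusp7, Dusp10, Dusp11, Dusp16 and Dusp22). Of these, 9 had at least 1 probe set with their symbol, of 17097 genes in all, with 14 probe sets between them, and Dusp5 was not analysed here. Each gene is given by its probe set with the highest mean over the 10 arrays, and all 9 passed the filter on dim genes.

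The 10 arrays form 4 groups. CD49b+ cells (n = 3), CD25+ cells (n = 3) and CD4+ cells (n = 2) came from mice injected intraperitoneally with 500000 immature dendritic cells 7, 5 and 3 days before they were killed. CD4+ cells of naive mice (n = 2) were the uninjected control. All cells were enriched as CD4+ by negative selection with beads and then sorted by flow cytometry on those markers, and each sample pooled several mice, whose number and age are not given in the sources used here. Nothing in the labels says that replicates came from separate pools, so the p-values reflect only the variation among these samples, possibly technical. CD49b is an integrin subunit encoded by Itga2, and CD25 is the interleukin-2 receptor alpha chain encoded by Il2ra. The CD49b+ and CD25+ groups were profiled from injected mice, so a difference from CD4+ cells of injected mice is one between sorted subsets, and the injection itself is tested in CD4+ cells.

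T cell receptor signalling reaches ERK through RAS, RAF and the MAP kinase kinases, and JNK and p38 through kinases of their own. Several DUSP genes are themselves switched on by this signalling within minutes to hours, so that they form a negative feedback loop. The family members differ in place and substrate. Dusp1, Dusp2 and Dusp4 encode inducible nuclear enzymes, Dusp6 and Dusp7 encode cytoplasmic enzymes that prefer ERK, and Dusp10 and Dusp16 encode enzymes that act mainly on JNK and p38. Dusp11 and Dusp22 are atypical members that lack the MAP kinase binding domain: the Dusp11 protein acts on RNA 5' triphosphates, and Dusp22 is known in T cells as an inhibitor of Lck.

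The sort was checked against its markers on the deposited log2 scale. Il2ra averaged 6.29 in CD49b+ cells, 8.83 in CD25+ cells and 4.17 in CD4+ cells of injected mice, so it was high in the CD25+ cells and intermediate in the CD49b+ cells. Foxp3, the defining factor of regulatory T cells, averaged 6.45 in CD49b+ cells, 8.25 in CD25+ cells and 4.64 in CD4+ cells of injected mice. Il2ra lay above the array's median on 0 CD4+ arrays of injected or naive mice. Foxp3 did so on 0 CD4+ arrays of injected mice and on 2 of naive mice. The levels of both genes in CD4+ cells of injected mice are therefore near background. Itga2 averaged 5.78 in CD49b+ cells and 5.82 in CD4+ cells of injected mice. The transcript of this sorting marker was thus not detectably higher in the cells sorted by it than in this CD4+ group (-0.05 ± 0.11, SE, limma adjusted p = 0.717). Against CD25+ cells it was higher in CD49b+ cells by 0.31 ± 0.10 (adjusted p = 0.0349). Summed over 9 natural killer cell markers, the linear level ranged from 521.6 to 744.6 in CD49b+ cells, 284.7 to 347.2 in CD25+ cells, 414.8 to 431.9 in CD4+ cells of injected mice and 470.9 to 506.2 in CD4+ cells of naive mice. Gzma alone, a granzyme gene that activated T cells also express, measured 7.70, 8.56 and 8.38 in CD49b+ cells, 5.26, 5.92 and 5.99 in CD25+ cells and 4.24 and 4.25 in CD4+ cells of injected mice. Of the 7 tested natural killer cell markers, 3 were higher and 2 lower in CD49b+ cells than in CD4+ cells of injected mice, and 2 were higher and 3 lower in CD25+ cells. Of all genes tested, 29.9% were higher and 23.5% lower in CD49b+ cells, and 20.8% and 17.8% in CD25+ cells. These shares apply to the B cell and the myeloid and dendritic cell markers below as well. Summed over 9 B cell markers, it ranged from 234.8 to 241.8 in CD49b+ cells, 298.4 to 337 in CD25+ cells, 345.1 to 373.3 in CD4+ cells of injected mice and 576.2 to 698.5 in CD4+ cells of naive mice. Of these 9 B cell markers, 4 to 7 lay under the array's median, and of the 5 tested, 1 was higher and 3 lower in CD49b+ cells and 1 higher and 1 lower in CD25+ cells than in CD4+ cells of injected mice. Summed over 15 myeloid and dendritic cell markers, it ranged from 661.5 to 793.4 in CD49b+ cells, 639.8 to 813.9 in CD25+ cells, 759.6 to 884.4 in CD4+ cells of injected mice and 1443 to 1826 in CD4+ cells of naive mice. Of the 10 tested myeloid and dendritic cell markers, 1 was higher (Ifi30, 0.85 ± 0.23, adjusted p = 0.0113) and 7 were lower in CD49b+ cells than in CD4+ cells of injected mice, with a median difference of -0.83, and 2 were higher and 5 lower in CD25+ cells. Lyz2, Cd14, Ms4a1 and Ighm did not pass the filter on dim genes. The part of these marker levels in any result below was not tested. Spiked-in poly-A control RNAs averaged 8.66 on the CD49b+ replicate 3 array and 8.51 on the CD25+ replicate 3 array, against 5.52 to 6.98 on the other 8. The 3' probe set of Gapdh was read against its 5' probe set, where a larger 3' excess is a sign of less intact RNA. This excess was 0.23 to 0.69 on the CD49b+ arrays, 0.37 to 0.60 on the CD25+ arrays and 0.13 and 0.26 on the CD4+ arrays of injected mice. It was -0.01 and 0.06 on those of naive mice. Its part in the results was not tested.

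Dusp4 had the widest range of group means of the 9 genes, and its order was CD25+ over CD49b+ over CD4+. In CD49b+ cells it measured 7.93, 8.60 and 7.27. In CD25+ cells it measured 9.59, 9.81 and 8.73. In CD4+ cells it measured 5.52 and 6.88 in injected mice and 5.86 and 5.73 in naive mice. No CD25+ array overlapped a CD49b+ array, and no array of either subset overlapped a CD4+ array. The mean was 3.33-fold higher in CD49b+ cells than in CD4+ cells of injected mice (log2 difference 1.73 ± 0.47, adjusted p = 0.0111) and 9.04-fold higher in CD25+ cells than in those CD4+ cells (3.18 ± 0.47, adjusted p = 0.000619). CD49b+ cells were 2.72-fold below CD25+ cells (log2 difference -1.44 ± 0.42, adjusted p = 0.0261). Leaving out any of the 5 arrays kept the call of CD25+ over CD4+ cells, with differences of 2.50 to 3.86. The CD49b+ over CD4+ call was lost without CD4+ replicate 1 of the injected mice (1.05, adjusted p = 0.119), the array on which Dusp4 was lowest. That of CD49b+ below CD25+ cells was lost without CD49b+ replicate 1 or 3 (adjusted p = 0.0619 and 0.0923) or CD25+ replicate 1 or 2 (0.0888 and 0.0809). Dusp4 deviated from its group means alike on the replicate 2 arrays of the 2 subsets (0.67 and 0.44) and the replicate 3 arrays (-0.66 and -0.65). On the replicate 1 arrays it did not (-0.01 and 0.21). With the number as a block, a pairing inferred from these same arrays, the difference between the subsets had an adjusted p of 0.00129. In sorted populations measured in bulk, fewer cells with a transcript and less of it per cell cannot be told apart.

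Dusp2 encodes a phosphatase of activated lymphocytes, known as PAC-1. It measured 8.08, 8.57 and 7.38 in CD49b+ cells and 8.78, 9.36 and 8.65 in CD25+ cells. The CD4+ arrays gave 8.91 and 9.42 in injected mice and 8.49 and 8.41 in naive mice. Dusp2 was lowest in the CD49b+ cells: each of their arrays lay below each CD4+ array of injected mice, and each lay below each CD25+ array. Against CD4+ cells of injected mice the difference was -1.16 ± 0.32 (adjusted p = 0.0123). Against CD25+ cells it was -0.92 ± 0.28 (adjusted p = 0.0347). Against naive CD4+ cells the CD49b+ mean differed by -0.44, which did not pass (adjusted p = 0.278), so these neighbours in the order are not separated beyond their spread. Without CD4+ replicate 2 of the injected mice the first difference was -0.90 (adjusted p = 0.0987). The second call was lost without any 1 of CD49b+ replicates 1 and 3 and CD25+ replicates 1 and 2 (adjusted p = 0.0671, 0.0994, 0.0669 and 0.107). With the replicate number as a block, the second difference had an adjusted p of 0.00141. That pairing was inferred from these same arrays, so this value is no separate support for the call.

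Dusp1, the founding member of the family and a feedback inhibitor of p38 and JNK, passed no test. It measured 12.33, 12.70 and 11.21 in CD49b+ cells, 12.53, 12.80 and 11.87 in CD25+ cells, 11.95 and 12.53 in CD4+ cells of injected mice and 11.91 and 11.71 in CD4+ cells of naive mice. The spread within CD49b+ cells (SD 0.77, n = 3) exceeded the range of the 4 group means, which was 0.59. The difference between CD49b+ and CD25+ cells was -0.32, with a 95% interval of -1.13 to 0.49, so a difference of that size was not detectable in this unpaired fit. With the replicate number as a block, the pairing inferred from these same arrays, its adjusted p was 0.137.

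**Figure D1:**
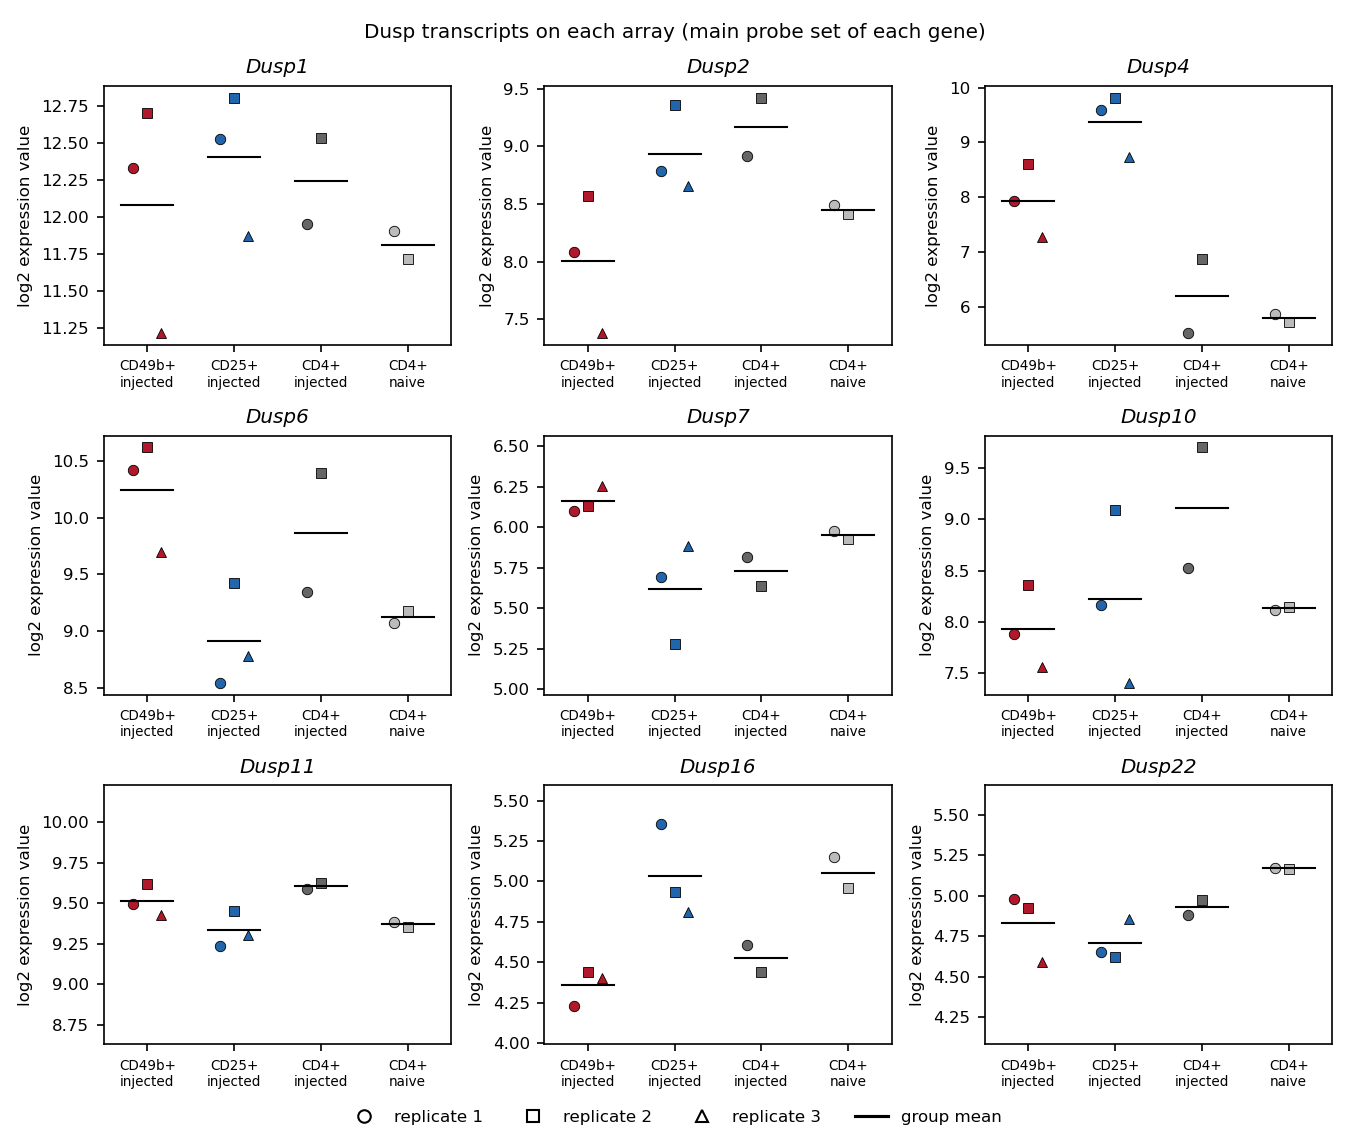
Deposited log2 level (vertical axis) of the 9 DUSP genes on each of the 10 arrays, with the groups along the horizontal axis, a marker shape for each replicate number and a bar for each group mean. Dusp4 separates CD25+ cells (8.73 to 9.81) from CD49b+ cells (7.27 to 8.60) and CD4+ cells (5.52 to 6.88). Levels are comparable within a panel but not between panels, since probe sets differ in how strongly they bind.

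Of the cytoplasmic ERK phosphatases, Dusp6 is an ERK-specific feedback inhibitor whose transcript follows ERK activity. It was high in CD49b+ cells, at 10.42, 10.62 and 9.69, and lower in CD25+ cells, at 8.54, 9.42 and 8.78, with no overlap between the 2 subsets. CD4+ cells measured 9.34 and 10.39 in injected mice and 9.07 and 9.18 in naive mice. CD49b+ cells exceeded CD25+ cells 2.51-fold (log2 difference 1.33 ± 0.32, adjusted p = 0.0114), a call that was lost without CD25+ replicate 1 (1.14, adjusted p = 0.0511). Dusp4 and Dusp6 therefore ran in opposite order in the 2 subsets. Neither subset passed the test against CD4+ cells of injected mice. There the CD49b+ difference was 0.38 (95% interval -0.43 to 1.18), and the CD25+ difference was -0.95 ± 0.36 (adjusted p = 0.0606). The CD25+ difference passed the test without CD25+ replicate 2 (adjusted p = 0.0292) and without CD4+ replicate 1 of the injected mice (-1.48, adjusted p = 0.0216). Against CD4+ cells of naive mice, a contrast added after the values were seen in which 47.6% of all genes were called for CD49b+ cells and 33.5% for CD25+ cells, CD49b+ cells were higher by 1.12 ± 0.36 (adjusted p = 0.0276). CD25+ cells differed by -0.21 (adjusted p = 0.687).

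Dusp7, the near relative of Dusp6, measured 6.10, 6.13 and 6.25 in CD49b+ cells and 5.70, 5.28 and 5.89 in CD25+ cells. CD4+ cells gave 5.82 and 5.64 in injected mice and 5.98 and 5.93 in naive mice. All 3 CD49b+ arrays lay above the other 7. CD49b+ cells exceeded CD25+ cells by 0.54 ± 0.14 (adjusted p = 0.0148) and CD4+ cells of injected mice by 0.43 ± 0.15 (adjusted p = 0.0376). The call over CD4+ cells did not hold with any 1 of the 5 arrays removed (adjusted p of 0.0564 to 0.196), and that over CD25+ cells was lost without CD49b+ replicate 3 (0.49, adjusted p = 0.0529). This probe set is of a type that can share probes with other transcripts. The other Dusp7 probe sets gave 0.12 (adjusted p = 0.499) and 0.26 (adjusted p = 0.0194) for CD49b+ over CD25+ cells, when adjusted over all probe sets. Against CD4+ cells of injected mice they gave 0.18 (adjusted p = 0.189) and 0.05 (adjusted p = 0.575).

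Of the JNK and p38 phosphatases, Dusp16 alone was called, and its levels were alike in CD25+ cells and naive CD4+ cells. It measured 4.23, 4.44 and 4.40 in CD49b+ cells, 5.36, 4.94 and 4.81 in CD25+ cells, 4.61 and 4.44 in CD4+ cells of injected mice and 5.15 and 4.96 in CD4+ cells of naive mice. The signal was dim: it lay above the array's median on the 3 CD25+ arrays and the 2 naive arrays, and under it on each array of CD49b+ cells and of CD4+ cells of injected mice. The differences below are therefore against levels near background, and Dusp16 passed the filter through CD25+ and naive arrays alone. With no filter on dim genes, the calls stood at adjusted p of 0.00602 (CD49b+ below CD25+ cells) and 0.0217 (CD25+ above CD4+ cells). CD49b+ cells were below CD25+ cells by 0.68 on the log2 scale (-0.68 ± 0.14, adjusted p = 0.00451), and the call held with any of the 6 arrays left out (adjusted p of 0.00283 to 0.0185). CD25+ cells were above CD4+ cells of injected mice by 0.51 ± 0.15 (adjusted p = 0.025). That call was lost without CD4+ replicate 1 or 2 of the injected mice (adjusted p = 0.0575 and 0.142). CD25+ cells did not differ detectably from naive CD4+ cells (-0.02, adjusted p = 0.936). CD49b+ cells lay below those naive cells (-0.70 ± 0.15, adjusted p = 0.00458). They did not differ detectably from CD4+ cells of injected mice (-0.17, adjusted p = 0.376). The CD25+ and naive arrays are those that kept Dusp16 in the test, so the differences against them are a description. The contrast of CD49b+ with naive cells was added after the values were seen, and 47.6% of all genes were called in it. A second and dimmer Dusp16 probe set, under the median on all 10 arrays, gave -0.07 for CD49b+ over CD25+ cells (adjusted p = 0.417).

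Dusp10, which restrains JNK in T cells, measured 7.88, 8.36 and 7.56 in CD49b+ cells, 8.16, 9.09 and 7.40 in CD25+ cells, 8.52 and 9.70 in CD4+ cells of injected mice and 8.11 and 8.15 in CD4+ cells of naive mice. The CD49b+ arrays all lay below the CD4+ arrays of injected mice, while the CD25+ arrays overlapped them. The differences from these CD4+ cells were -1.18 ± 0.46 for CD49b+ cells (adjusted p = 0.0549) and -0.89 ± 0.46 for CD25+ cells (adjusted p = 0.155), so neither passed. The CD49b+ difference passed without CD4+ replicate 1 of the injected mice (-1.77, adjusted p = 0.0263) or CD49b+ replicate 2 (adjusted p = 0.0477), and the CD25+ difference was -1.33 (adjusted p = 0.0297) without CD25+ replicate 2.

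The atypical members had the narrowest ranges of group means, 0.27 for Dusp11 and 0.46 for Dusp22. Dusp11 measured 9.50, 9.62 and 9.43 in CD49b+ cells, 9.23, 9.45 and 9.30 in CD25+ cells, 9.59 and 9.62 in CD4+ cells of injected mice and 9.39 and 9.35 in CD4+ cells of naive mice. CD25+ cells were lower than CD4+ cells of injected mice by a small step, -0.27 ± 0.09 (adjusted p = 0.0382). That call did not hold when each array was centred on its median (-0.11, adjusted p = 0.315) or without CD4+ replicate 1 or 2 of the injected mice (adjusted p = 0.111 and 0.153) or CD25+ replicate 1 or 3 (0.0938 and 0.0846). A second Dusp11 probe set was lower in both subsets than in CD4+ cells of injected mice, by -0.43 in CD49b+ cells (adjusted p = 0.00159) and by -0.36 in CD25+ cells (adjusted p = 0.00481), so the probe sets disagree on the CD49b+ cells. Dusp22 passed no test in the 4 comparisons. It measured 4.98, 4.92 and 4.59 in CD49b+ cells, 4.65, 4.62 and 4.85 in CD25+ cells, 4.88 and 4.97 in CD4+ cells of injected mice and 5.17 and 5.16 in CD4+ cells of naive mice, where it was higher than on every other array. Both subsets were below the naive cells (-0.34 in CD49b+ cells, adjusted p = 0.0445, and -0.46 in CD25+ cells, adjusted p = 0.0172). These contrasts were added after the values were seen, and 47.6% and 33.5% of all genes were called in them. The Dusp22 signal was dim, above the array's median on 8 of the 10 arrays. Each array of the subsets also had a lower median than each naive array. The part of these lower medians in the Dusp22 differences was not tested.

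Counted over the 9 genes, the calls were no more frequent than among genes at large in the comparisons with CD4+ cells of injected mice. In CD49b+ cells, Dusp4 and Dusp7 were higher and Dusp2 was lower, which is 3 of 9, where 53.4% of the 11037 genes tested were called, 29.9% higher and 23.5% lower. The arrays of the groups did not overlap for 5 of the 9, against 70.3% of all genes tested, and the median difference was -0.10 over the 9 and 0.03 over all. In CD25+ cells, Dusp4 and Dusp16 were higher and Dusp11 was lower, again 3 of 9, where 38.6% of all genes were called, 20.8% higher and 17.8% lower. There 4 of the 9 did not overlap, against 58.9% of all genes, and the median difference was -0.22 over the 9 and 0.02 over all. Between the subsets, Dusp6 and Dusp7 were higher and Dusp2, Dusp4 and Dusp16 lower in CD49b+ than in CD25+ cells. These are 5 of 9 called, against 29.9% of all genes, 17.5% higher and 12.4% lower, with 5 of 9 not overlapping, against 41.6%. The median difference there was -0.29 over the 9 and 0.03 over all. Dusp16, counted in CD25+ over CD4+ cells and between the subsets, passed the filter through CD25+ and naive arrays alone. Those counts therefore rest partly on the filter.

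The injection left no DUSP gene past the test in CD4+ cells. Of the 9, 0 were called by limma between injected and naive mice, where 1.39% of all genes were called, 0.0272% higher and 1.36% lower. At an unadjusted p under 0.05 there were 2, Dusp16 (-0.53 ± 0.17, adjusted p = 0.203) and Dusp11 (0.24 ± 0.10, adjusted p = 0.372). The arrays of injected and naive mice did not overlap for 8 of the 9 genes, Dusp4 being the exception, but with 2 arrays a group 48.5% of all genes did not overlap either. Dusp10 had the largest mean difference of the 9 (0.98 ± 0.51, 95% interval -0.15 to 2.12), and its CD4+ arrays of injected mice read 8.52 and 9.70. Dusp6 (0.74 ± 0.39) and Dusp2 (0.72 ± 0.35) likewise spanned 0 in their intervals, which were -0.14 to 1.62 and -0.07 to 1.5.

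**Figure D2:**
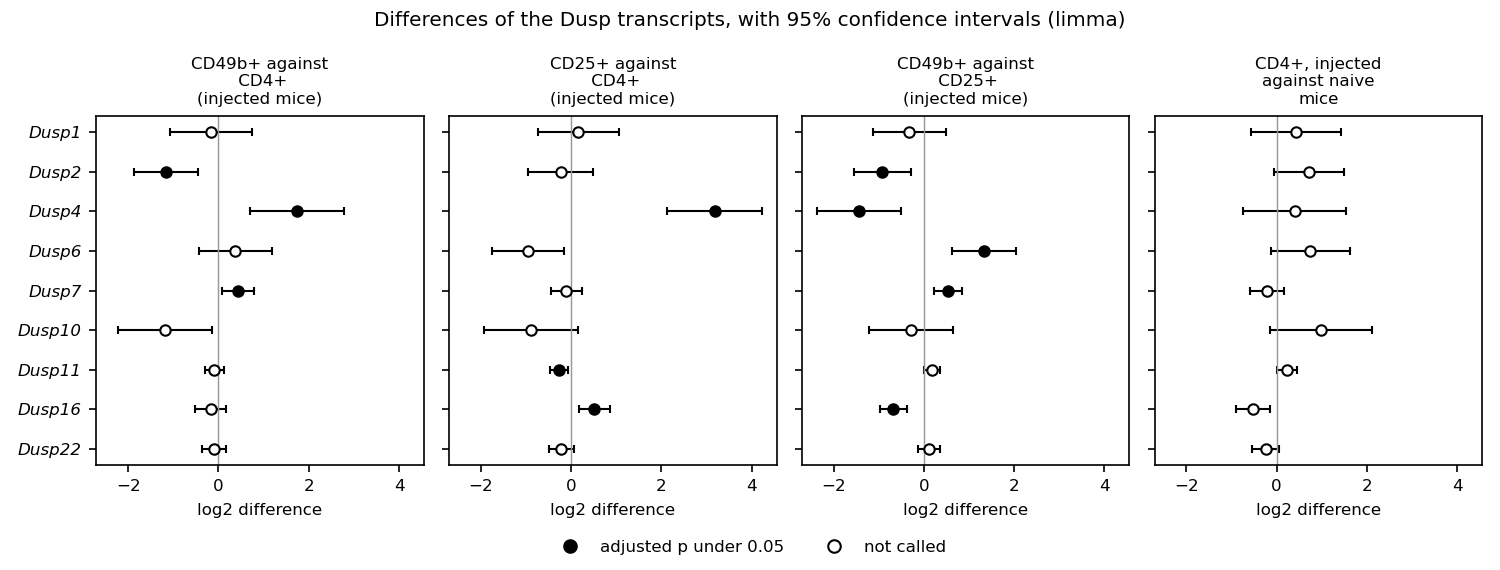
Log2 difference of each DUSP gene (horizontal axis) in the 4 comparisons, first-named group minus second-named, with 95% intervals from limma; filled points passed an adjusted p under 0.05. Dusp4 in CD25+ over CD4+ cells, at 3.18, is the farthest from 0, and no point is filled for injected over naive CD4+ cells.

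The 9 genes fell into 2 kinds by how much replicates of a group differed. Dusp1, Dusp2, Dusp4, Dusp6 and Dusp10 had within-group SDs of 0.55, 0.43, 0.64, 0.49 and 0.64 on 6 residual degrees of freedom. At least 97.8% of the tested genes varied less than each of them. Dusp7, Dusp11, Dusp16 and Dusp22 had 0.19, 0.09, 0.19 and 0.14, where the median over all tested genes was 0.12. The spread of the first 5 genes had a common direction. All 5 lay above their group mean on the 3 replicate 2 arrays of injected mice, and all 5 lay below it on both replicate 3 arrays, a pattern held by 17.4% of all tested genes and by 1 of the other 4 DUSP genes, Dusp11. These 5 were picked out after their values were seen, so the count is a description.

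Immediate early genes, which ERK and related kinases switch on, had the same direction on these arrays. Of 14 listed ERK target transcription factors and related targets, 11 showed the same pattern. Egr1, a zinc finger factor induced within minutes of stimulation, measured 10.54, 11.15 and 9.28 in CD49b+ cells, 10.83, 11.26 and 9.81 in CD25+ cells, 10.60 and 11.07 in CD4+ cells of injected mice and 10.49 and 10.36 in CD4+ cells of naive mice. Its within-group SD was 0.71. Fosb, an AP-1 subunit, had the widest within-group SD of the list at 1.24, and its CD4+ arrays of injected mice read 7.36 and 10.37. The replicate 3 arrays of the subsets are those on which the poly-A controls averaged 8.66 and 8.51. The part of that difference in the spread was not tested. The labels do not say whether replicate numbers mark a shared day or pool.

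**Figure D3:**
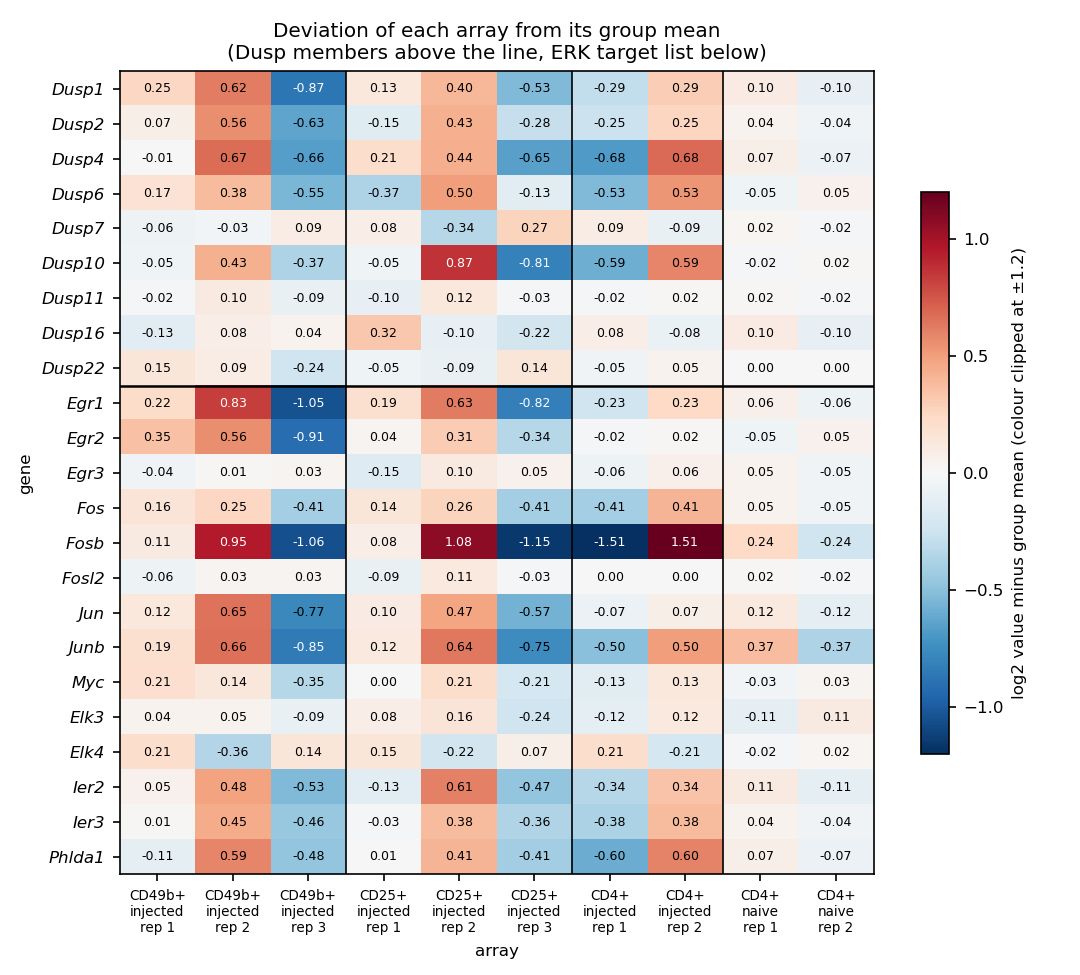
Deviation of each array from its group mean in log2 units (colour), for the 9 DUSP genes above the line and the 14 ERK target genes below it, one column per array. The replicate 2 arrays of injected mice are above their means and the replicate 3 arrays below for Dusp1, Dusp2, Dusp4, Dusp6 and Dusp10. In groups of 2 arrays the columns mirror each other by construction.

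The promoter letters of the DUSP genes that varied together are shown so that binding motifs of factors downstream of these kinases can be read directly. Each is the 250 bases before the annotated start, 5' to 3' on the gene's strand, from RefSeq on GRCm38.p6, a C57BL/6J reference that can differ from DBA/1. Of the 10 genes taken by symbol, 9 had an entry, and Dusp4 had none in the table used. Capitals mark matches to the cyclic AMP response element (CRE, TGACGTCA) that CREB and ATF factors bind, its half-site (TGACG) or the E-box CACGTG. AP-1 sites (TGANTCA) and the CArG box of serum response factor were searched as well, all on both strands. The windows lie at chr17:26508473-26508722 (minus strand) for Dusp1, chr2:127335909-127336158 (plus) for Dusp2, chr10:99262981-99263230 (plus) for Dusp6 and chr1:184034131-184034380 (plus) for Dusp10.
Dusp1: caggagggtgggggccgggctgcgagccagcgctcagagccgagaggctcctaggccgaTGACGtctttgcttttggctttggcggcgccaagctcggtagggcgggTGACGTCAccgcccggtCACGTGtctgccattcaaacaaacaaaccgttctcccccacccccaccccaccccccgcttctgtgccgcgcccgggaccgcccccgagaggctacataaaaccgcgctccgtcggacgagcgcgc
Dusp2: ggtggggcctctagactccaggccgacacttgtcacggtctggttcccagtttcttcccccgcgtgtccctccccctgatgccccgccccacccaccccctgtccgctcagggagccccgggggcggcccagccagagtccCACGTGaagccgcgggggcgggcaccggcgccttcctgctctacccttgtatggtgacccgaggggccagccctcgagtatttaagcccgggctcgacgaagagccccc
Dusp6: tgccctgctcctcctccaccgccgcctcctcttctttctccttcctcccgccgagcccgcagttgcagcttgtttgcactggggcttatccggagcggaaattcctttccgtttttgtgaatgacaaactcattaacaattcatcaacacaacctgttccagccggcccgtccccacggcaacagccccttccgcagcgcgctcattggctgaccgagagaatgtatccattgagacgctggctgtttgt
Dusp10: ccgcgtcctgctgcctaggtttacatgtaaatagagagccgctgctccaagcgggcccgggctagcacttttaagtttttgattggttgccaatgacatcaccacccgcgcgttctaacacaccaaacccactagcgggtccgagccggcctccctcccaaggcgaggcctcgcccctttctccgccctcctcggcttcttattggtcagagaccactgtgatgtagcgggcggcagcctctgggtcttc
The Dusp1 window held a full CRE whose first base lay 143 bases before the start, a separate half-site at 191 and an E-box at 126. A full CRE was found in 1.55% of 32851 promoters, the half-site, which the full CRE contains, in 17.8% and the E-box in 6.02%. The Dusp2 window held the E-box at 109. The Dusp6 and Dusp10 windows held none of the 5 motifs, so no motif searched was found in all 4 of these windows, while Dusp1 and Dusp2 both held the E-box. Motifs of other factors were not searched, so a window without these 5 may still hold sites of other factors downstream of the kinases. AP-1 sites, present in 6.75% of promoters, were in none of the 9 windows. The CArG box, present in 1.47% of promoters, was in the Dusp5 window alone of the 9, at 82 and 72 bases before the start. The half-site without a full CRE was in the Dusp5, Dusp11 and Dusp16 windows, at 55, 33 and 70 bases before the start.

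The genes most like 4 DUSPs over the 10 arrays were ranked by the root mean square difference of the log2 values, each gene first set to its own mean, among 10470 genes. For Dusp4 they were Foxp3 (0.49), Tnfrsf9 (0.56), which encodes the costimulatory receptor 4-1BB, and Ccrl2 (0.57), an atypical chemokine receptor gene. Tnfrsf9 averaged 6.83 in CD49b+ cells, 9.12 in CD25+ cells, 5.31 in CD4+ cells of injected mice and 5.55 in CD4+ cells of naive mice, the order of Dusp4 in the subsets. For Dusp6 they were Plk3 (0.30), Zcchc10 (0.33) and Galnt10 (0.37), with Galnt10 at 7.28 in CD49b+ cells, 5.70 in CD25+ cells, 6.60 in CD4+ cells of injected mice and 6.13 in CD4+ cells of naive mice. For Dusp10 they were Usp22 (0.23), Bbc3 (0.27) and Trp53inp2 (0.27). For Dusp2 they were Jun (0.21), an AP-1 subunit, Bambi (0.24) and Pkp4 (0.24). Jun averaged 11.33 in CD49b+ cells, 12.14 in CD25+ cells, 12.13 in CD4+ cells of injected mice and 11.50 in CD4+ cells of naive mice, with its lowest mean, like that of Dusp2, in CD49b+ cells. The arrays share their groups and their replicate spread, so likeness over them is a description.

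The kinases that DUSPs oppose were also read out. All 6 tested MAP kinase kinases were higher in CD49b+ cells than in CD4+ cells of injected mice, with a median difference of 0.52 against 0.03 over all genes, where 29.9% of all genes were called higher. Map2k3, an activator of p38, was 1.22 ± 0.17 higher (adjusted p = 0.000245), Map2k6, which also activates p38, 0.64 ± 0.13 (adjusted p = 0.00222), and Map2k4, an activator of JNK, 0.58 ± 0.13 (adjusted p = 0.00387). Against CD25+ cells, 5 of the 6 were higher in CD49b+ cells, led by Map2k6 (0.75 ± 0.11, adjusted p = 0.000923) and Map2k3 (0.67 ± 0.15, adjusted p = 0.00726), where 17.5% of all genes were. In CD25+ cells against CD4+ cells, 1 of the 6 was higher, Map2k3 (0.55 ± 0.17, adjusted p = 0.0263). With single arrays left out, the count over CD4+ cells ran from 4 to 6, and that over CD25+ cells was 3 without CD49b+ replicate 1 or CD25+ replicate 3 and 4 without each other array. The CD25+ count was 0 without CD4+ replicate 1 of the injected mice or CD25+ replicate 2 or 3, 2 without CD4+ replicate 2, 4 when arrays were centred on their medians and 0 after quantile normalization.

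Of the 11 MAP kinase kinase kinases tested, 3 were higher and 3 lower in CD49b+ cells than in CD4+ cells of injected mice, where 29.9% of all genes were higher and 23.5% lower, and 3 were higher and 0 lower in CD25+ cells, against 20.8% and 17.8%. Without CD4+ replicate 1 of the injected mice 1 was higher in each subset, as also in CD49b+ cells without their replicate 1, and centred on medians the counts were 5 and 2 in CD49b+ cells and 4 and 0 in CD25+ cells. Map3k8, which couples toll-like and tumour necrosis factor receptors to ERK, was high in both subsets: 6.06, 6.23 and 5.37 in CD49b+ cells and 6.62, 6.58 and 6.05 in CD25+ cells, against 3.90 and 4.34 in CD4+ cells of injected mice. The 4 CD4+ arrays lay under their medians for it and it passed the filter through arrays of the subsets alone, so no size is given to the differences. Map3k8 is among the genes counted as higher than in CD4+ cells in each subset. Those counts thus rest partly on the filter, and no reading against all genes is made of them. Map3k14 (-0.68 ± 0.18, adjusted p = 0.0117) and Map3k3 (-0.65 ± 0.11, adjusted p = 9e-04) were lower in CD49b+ cells. Between the subsets, 2 of the 11 were lower in CD49b+ cells, Braf, a RAF kinase (-0.62 ± 0.12, adjusted p = 0.00423), and Map3k3 (-0.43 ± 0.10, adjusted p = 0.00917), and 0 were higher, where 17.5% of all genes were higher and 12.4% lower.

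Of the 9 MAP kinases tested, Nlk, a Nemo-like kinase, was higher in CD49b+ than in CD25+ cells (0.56 ± 0.12, adjusted p = 0.00724). Mapk10 measured 3.67, 3.85 and 3.85 in CD49b+ cells, 4.52, 5.14 and 4.69 in CD25+ cells and 3.83 and 3.70 in CD4+ cells of injected mice. Mapk12, a p38 kinase, measured 4.48, 4.53 and 4.47 in CD49b+ cells, 5.43, 5.54 and 5.18 in CD25+ cells and 4.57 and 4.66 in CD4+ cells of injected mice. Both passed the filter through CD25+ arrays alone, 2 for Mapk10 and 3 for Mapk12, so these levels are a description. The MAP kinases counted 1 higher and 3 lower in CD49b+ than in CD25+ cells, Mapk10 and Mapk12 among the lower, 2 and 2 in CD49b+ over CD4+ cells, and 3 and 2 in CD25+ over CD4+ cells. These counts rest partly on genes that the filter kept for one group, and no reading against all genes is made of them. With single arrays left out, the CD49b+ over CD4+ counts ran from 1 to 3 higher, 1 without CD4+ replicate 1 of the injected mice or CD49b+ replicate 2, and from 1 to 2 lower, 1 without CD4+ replicate 2, and centred on medians they were 4 and 1. The count higher than in CD25+ cells was 2 without CD25+ replicate 2.

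Upstream, RAS and its activators and inhibitors were counted. Of 10 tested genes for RAS and its activators, 6 were higher and 0 lower in CD49b+ than in CD25+ cells, against 17.5% and 12.4% of all genes, with a median of 0.36 against 0.03 over all genes. Rasgrp2, a RAS-family exchange factor, measured 9.23, 9.09 and 9.13 in CD49b+ cells and 8.28, 8.32 and 8.17 in CD25+ cells (0.89 ± 0.08, adjusted p = 3.82e-05). Nras was higher in CD49b+ than in CD25+ cells by 0.81 ± 0.08 (adjusted p = 7.99e-05) and the adaptor gene Grb2 by 0.68 ± 0.10 (adjusted p = 0.00095). Of 10 tested RAS and RAF inhibitors, 1 was higher and 6 lower in CD49b+ than in CD25+ cells, with a median of -0.32, against the same shares of all genes. Spry1, a feedback inhibitor of receptor signalling to ERK, measured 5.65, 6.23 and 5.78 in CD49b+ cells, 7.48, 8.0 and 7.42 in CD25+ cells and 6.25 and 6.84 in CD4+ cells of injected mice. It was lower in CD49b+ cells (-0.66 ± 0.23, adjusted p = 0.0367) and higher in CD25+ cells (1.09 ± 0.23, adjusted p = 0.00485) than in those CD4+ cells. Rasa2, a RAS GTPase-activating protein gene, was lower in CD49b+ cells than in CD25+ cells (-0.71 ± 0.10, adjusted p = 0.00071), and Rasa3 was higher (0.70 ± 0.13, adjusted p = 0.00252). Against CD4+ cells of injected mice the inhibitors counted 1 higher and 6 lower in CD49b+ cells, or 1 and 2 when arrays were centred on their medians and 1 and 3 without CD4+ replicate 2 of the injected mice, and 0 higher without CD4+ replicate 1. In CD25+ cells they counted 3 and 3, with 0 higher without CD4+ replicate 1 of the injected mice and 1 higher without CD25+ replicate 3. The RAS activators counted 3 and 3 in CD49b+ cells, or 7 and 2 when centred. In CD25+ cells they counted 0 and 4, with 2 lower when centred or without CD4+ replicate 1 of the injected mice. In these comparisons 29.9% of all genes were higher and 23.5% lower in CD49b+ cells, and 20.8% and 17.8% in CD25+ cells.

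Downstream, 3 of the 14 ERK targets were higher and 3 lower in CD49b+ cells than in CD4+ cells of injected mice, with 1 and 1 in CD25+ cells and 1 and 2 between CD49b+ and CD25+ cells. Of all genes, 29.9% and 23.5%, 20.8% and 17.8%, and 17.5% and 12.4% were called in these directions. The CD49b+ over CD4+ count was 1 lower without CD4+ replicate 2 of the injected mice and 4 lower without CD49b+ replicate 2, the CD25+ over CD4+ count 2 higher without CD4+ replicate 2, without CD25+ replicate 3 or when centred, and the count between subsets 1 lower without CD25+ replicate 1 or 2. Ier3, a stress and survival gene whose protein is a substrate of ERK, measured in CD49b+ cells 7.25, 7.69 and 6.79, against 4.77, 5.18 and 4.44 in CD25+ cells and 4.28 and 5.04 in CD4+ cells of injected mice, above the array's median on all 3 CD49b+ arrays, 2 CD25+ arrays and 1 of those 2 CD4+ arrays. It was higher in CD49b+ cells by 2.58 ± 0.30 over CD4+ cells (adjusted p = 8.97e-05) and by 2.45 ± 0.27 over CD25+ cells (adjusted p = 0.000113). Egr2, a factor linked to T cell anergy, was lower in CD49b+ than in CD25+ cells (-1.25 ± 0.33, adjusted p = 0.0164), as was Myc (-0.80 ± 0.16, adjusted p = 0.00404). In CD25+ cells against CD4+ cells of injected mice, Elk3 was higher (0.80 ± 0.13, adjusted p = 0.00113) and Fosl2 lower (-0.75 ± 0.08, adjusted p = 0.000115).

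Other phosphatases were called in both directions. Of 14 tested dual-specificity phosphatases outside the 9, 4 were higher and 6 lower in CD49b+ cells, and 3 and 5 in CD25+ cells, than in CD4+ cells of injected mice, and 2 and 2 between the subsets. Of all genes, 29.9% were higher and 23.5% lower in CD49b+ over CD4+ cells, 20.8% and 17.8% in CD25+ over CD4+ cells and 17.5% and 12.4% between the subsets. Centred on medians the counts were 6 and 3 in CD49b+ cells, 5 and 4 in CD25+ cells and 3 and 2 between the subsets. Without CD4+ replicate 2 of the injected mice 3 were lower in CD49b+ cells and 2 in CD25+ cells, and 1 was higher in CD25+ cells without CD4+ replicate 1 or CD25+ replicate 2. Ssh1, a phosphatase of the actin regulator cofilin, was higher in CD25+ cells (1.08 ± 0.17, adjusted p = 0.000808). Of 5 tested MAP kinase phosphatases of other families, 2 were higher and 0 lower in each of the 3 comparisons. Quantile normalization left 1 higher in CD25+ over CD4+ cells and 1 higher and 1 lower between the subsets, and median centring gave 3 and 0 over CD4+ cells in each subset. Without CD4+ replicate 2 of the injected mice 0 were higher in CD25+ cells. Between the subsets 1 was higher with any array but CD25+ replicate 3 left out, and 1 was lower without CD49b+ replicate 1. Ppm1j, of the PPM family, was higher in CD49b+ cells by 1.54 ± 0.12 over CD4+ cells (adjusted p = 9.82e-06) and by 1.32 ± 0.11 over CD25+ cells (adjusted p = 2.09e-05) of injected mice. Ppp2ca, a catalytic subunit of PP2A, was higher in CD49b+ cells (0.55 ± 0.08, adjusted p = 0.000498) and in CD25+ cells (0.31 ± 0.08, adjusted p = 0.017) than in CD4+ cells of injected mice. Across all these lists, limma called 0 of the 79 tested genes between CD4+ cells of injected and of naive mice, with 4 at an unadjusted p under 0.05.

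**Figure D4:**
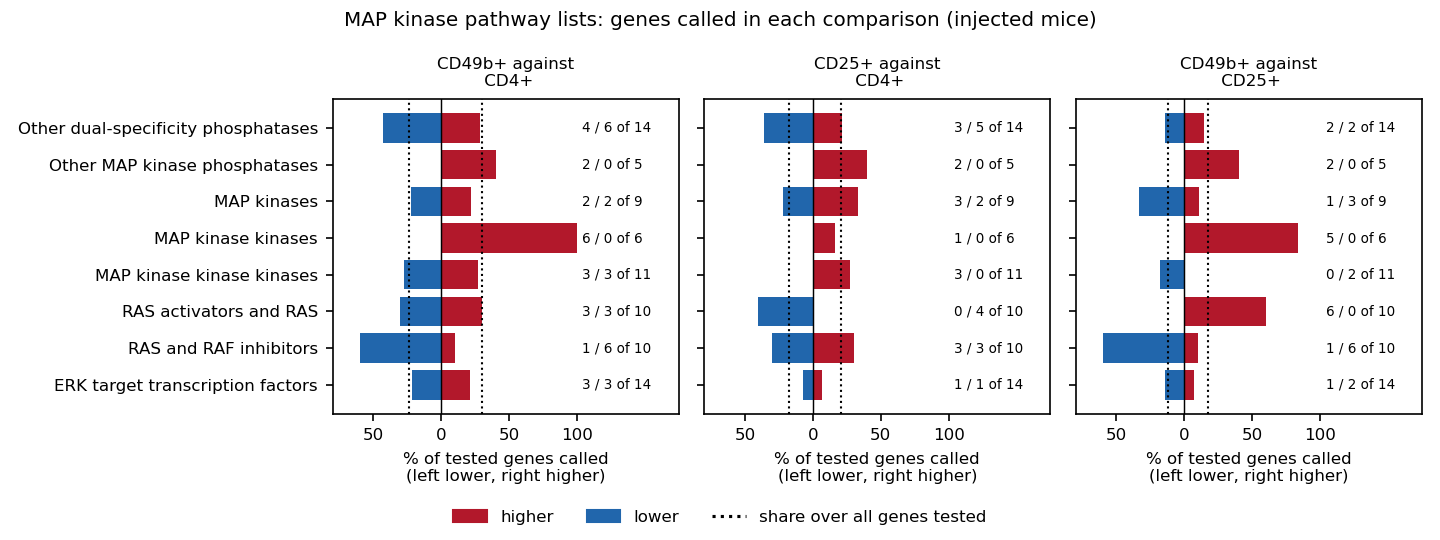
Share of the tested genes of each pathway list called higher or lower (horizontal axis, percent) in the comparisons between subsets and CD4+ cells, with counts printed beside the bars and dotted lines for the share over all genes tested. The MAP kinase kinases, with 6 of 6 higher in CD49b+ over CD4+ cells, stand farthest from the dotted line.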

How the data were processed

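Gene expression was measured on 10 Affymetrix mouse arrays from 100 ng of total RNA per sample, per the labels' protocols. The authors deposited log2 values of 45141 probe sets, for which the submitters' processing notes name Affymetrix Expression Console (version 1.2.1) and GCRMA without settings. GCRMA is a method that subtracts background, aligns arrays and combines the probes of a set. A joint normalization of all arrays is not stated, so levels can differ between groups through this step. The precision is set by how few arrays there were.

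After 104 control probe sets were set aside, 28898 probe sets had 1 gene symbol, 551 several and 15588 none here, and 28689 were matched to the current gene table. Each of 17097 genes was represented by its probe set with the highest mean, and the 11037 with at least 2 arrays above the 50th percentile of their array were tested, 6060 being set aside as dim. One limma fit (limma 3.58.1, R 4.3.3) of the 4 group means gave two-sided tests, with Benjamini-Hochberg adjustment per comparison over all genes tested, called at an adjusted p under 0.05. It was tested on simulated data. Fold changes are 2 to the power of the log2 difference. Every adjusted p in the text comes from this fit unless another setting is named, and other probe sets were fitted over all probe sets.

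The genes and lists were chosen with earlier results of these data known. Named genes are the 10 DUSPs in every comparison, up to 3 called genes of each pathway list with the largest difference, the sort markers and, for the 4 DUSPs with the widest range of group means, the 3 most similar genes. Egr1 and Fosb were named for their spread within groups after their values were seen. The contrasts with naive cells, all 4 CD4+ arrays as comparator and a crossed pairing and a block fitted on the 6 arrays of the subsets alone were added after seeing the data. Alternatives were other filters, quantile normalization, median centring, another eBayes prior, other probe sets, only the groups compared, a replicate block and each array left out. Over all genes tested, deviations from the group means of same-numbered CD49b+ and CD25+ arrays correlated at 0.16, 0.37 and 0.64, so the labels' numbers were taken to pair these arrays, although the labels do not say what a number marks. Arrays of these subsets with unlike numbers correlated at -0.50 to 0.13. The pairing was thus taken from the values to which the block was then fitted. The other comparisons share only 2 numbers and were not taken as paired. Marker levels were summed after taking 2 to the power of each value.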

Additional observations from a re-analysis of the deposited data

How the results depend on the processing

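The 11 DUSP calls kept their direction in all 162 settings tried and lost the threshold in 39, while 25 results that had not passed changed sign in 27 of 350 settings and passed in 17. Counts of DUSP genes called ran from 1 to 3 (CD49b+ over CD4+ of injected mice, 3 in all), 1 to 5 (CD25+ over CD4+, 3), 2 to 5 (CD49b+ over CD25+, 5) and 0 to 0 (CD4+ of injected over naive mice, 0, with 0 to 4 at an unadjusted p under 0.05) with single arrays left out. The CD25+ over CD4+ count was 1 with only those groups in the fit and 5 with the replicate number as a block, and the CD49b+ over CD25+ count was 3 with a trended, robust prior. The counts over all genes were 4357 to 5363 (5892), 2818 to 3970 (4261), 2496 to 3132 (3297) and 16 to 116 (153) with arrays left out. With no filter they were 9123 and 7583 in the first 2, and the stricter filter gave 2500 in the second. For injected over naive CD4+ cells, limma called 0 with only those arrays in the fit (1737 at an unadjusted p under 0.05). Median centring shifted the all-gene median by 0.19 and 0.16 in the first 2 comparisons and the split of calls to 4890 higher and 1358 lower, against 3300 and 2592, and to 3956 and 1077, against 2297 and 1964.

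Results that did not pass and changed sign are given with their values after the change or, with arrays left out, with their ranges. In CD49b+ over CD4+ cells they were Dusp16 (0.0312 with quantile normalization, 0.0235 centred), Dusp22 (0.0868 and 0.0945), Dusp1 (0.0304 centred, 0.188 with the block, 0.0545 with all CD4+ arrays) and Dusp11 (0.10 centred, 0.0283 with all CD4+ arrays). In CD25+ over CD4+ cells they were Dusp7 (0.0518 centred, 0.0564 for another probe set) and Dusp2 (0.12 with all CD4+ arrays). Other probe sets gave 0.0122 for Dusp10 and -0.0678 for Dusp11 in CD49b+ over CD25+ cells, and -0.0699 for Dusp11 and 0.0594 for Dusp7 in injected over naive cells. With arrays left out, signs changed within -0.15 to 0.90 (Dusp6), -0.47 to 0.27 (Dusp1) and -0.17 to 0.0225 (Dusp22) for CD49b+ over CD4+ cells. The ranges were -0.13 to 0.45 (Dusp1), -0.49 to 0.0173 (Dusp2) and -0.24 to 0.0639 (Dusp7) for CD25+ over CD4+ cells, -0.63 to 0.11 (Dusp1) and -0.69 to 0.15 (Dusp10) for CD49b+ over CD25+ cells, and -0.28 to 1.08 (Dusp4) for injected over naive cells. Several of these ranges are wide, so a single array could decide the sign. The causes were not tested.

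With the replicate number as a block for the paired CD49b+ and CD25+ arrays, 4024 genes were called (3956 with only those 6 arrays), and the calls of the 9 DUSP genes were the same. Same-numbered CD4+ arrays of injected mice correlated with those of the subsets at 0.09 to 0.53, and CD4+ arrays of injected and naive mice at -0.21. The replicate block gave 377 calls for injected over naive cells, and crossing the naive numbers gave 526, with 1 DUSP gene. The arrays' number limits what small differences can show, and 2 of the 4 groups had 2 arrays.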
